A study of Mus musculus with 26 samples.

Results

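Kdr, Cdh5, Pecam1, Esam, Plvap and Cldn5 are genes that endothelial cells, the lining of blood vessels, are known to express. They are 6 of the 18193 genes that the annotation of the array names. All probe sets assigned to them were taken, 7 of 45101, of which 2 were for Cdh5. None of the 7 lay on a probe set that carried several gene symbols, and all 7 passed the filter on dim probe sets. Transcript levels were measured in mouse samples on 26 arrays of 1 sample each, in 4 groups. The groups were 4 osteosarcoma cell lines (176, 179, 182 and 213), 4 secondary tumours (29, 64, 66 and 94), 15 primary osteosarcomas and 3 cultures of osteoblasts differentiated in vitro, the control of the series. Osteosarcoma is a malignant bone tumour whose cells lay down bone matrix. By their labels, secondary tumours 29, 64 and 94 were transplanted tumours, while the source label of 66 makes it tumour tissue derived from cultured cells, although its title calls it a cell line. The titles of all 4 carry the prefix OPflR, which the labels do not explain. The design text calls the osteoblasts wild type. The sources used here do not give the genotype of the tumours and cell lines, nor strain, age, the hosts of the transplants or the passage of the cell lines. The labels do not say that the cultures or tumours came from separate animals, so p-values measure the spread between these samples, which may be technical.

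Endothelial cells form the inner wall of vessels and are held together by adherens junctions, built around the cadherin Cdh5, and by tight junctions, in which Cldn5 is a main claudin. Pecam1 and Esam are adhesion molecules of the immunoglobulin superfamily at the same contacts, and Plvap forms the diaphragms that span the pores and caveolae of permeable endothelium. Growth of vessels is driven mainly by VEGF-A acting on its receptor Kdr, also called VEGFR2. Bone and bone tumours are fed by sinusoidal and capillary vessels.

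RefSeq promoter windows, from 250 bases before to 50 bases after a transcript start on assembly GRCm38.p6, were at hand for 2 of the 6 genes. They are the only ones shown because no window was at hand for the other genes. Both genes, a growth factor receptor and a tight junction protein, were called higher in both kinds of tumour than in osteoblasts. They were called lower in cell lines than in tumours, and all 6 genes had a probe set with these calls. The window of Kdr is chr5:75978406-75978705 on the minus strand, and that of Cldn5 is chr16:18776597-18776896 on the plus strand. Capitals mark CCGCCC, the reverse complement of the GC box GGGCGG.
Kdr: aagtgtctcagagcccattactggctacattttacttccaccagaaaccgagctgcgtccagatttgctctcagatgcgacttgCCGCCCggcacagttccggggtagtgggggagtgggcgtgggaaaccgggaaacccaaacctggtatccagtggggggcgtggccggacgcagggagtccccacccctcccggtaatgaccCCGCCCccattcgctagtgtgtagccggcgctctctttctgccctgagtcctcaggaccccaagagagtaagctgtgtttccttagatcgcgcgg
Cldn5: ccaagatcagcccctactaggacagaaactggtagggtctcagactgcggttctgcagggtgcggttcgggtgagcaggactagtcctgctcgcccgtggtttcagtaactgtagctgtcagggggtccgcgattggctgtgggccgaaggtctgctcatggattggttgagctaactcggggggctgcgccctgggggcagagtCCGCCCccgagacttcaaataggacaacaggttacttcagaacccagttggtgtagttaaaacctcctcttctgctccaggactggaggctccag
The GC box letters began at positions -166 and -45 from the start site in Kdr and at -45 in Cldn5. They were found in 35.7% of all 32851 promoter windows of this length when both strands were searched. Neither window held AGGAAG (letters of an ETS factor site, in 35.4% of all windows) or its variant CGGAAG (16.9%). Both also lacked AGATAA, which factors of the GATA family bind (11.2%), and TATAAA, the core promoter element known as the TATA box (13.6%). Only these exact letters and their reverse complements were searched, so other forms of such sites were not looked for.

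Levels are linear intensities as deposited, and those of different probe sets are not comparable. Array medians were 44.4 to 48.2 in cell lines, 54.9 to 58.1 in secondary tumours, 50.4 to 58.8 in primary tumours and 46.4 to 48.2 in osteoblasts. The Gapdh control probe sets for the 5′ and the 3′ end of the transcript, a check of RNA integrity, had a ratio (5′ over 3′) of 1.04 to 1.08 in cell lines, 0.839 to 1.08 in secondary tumours, 0.656 to 1.03 in primary tumours and 0.916 to 0.967 in osteoblasts. The bacterial transcripts added at hybridisation divided the arrays into 3 sets. Set A held the 3 osteoblast cultures, set B held 7 primary and the 4 secondary tumours, and set C held the 4 cell lines and 8 primary tumours. In comparisons with osteoblasts, set and group cannot be told apart. Cell lines and secondary tumours shared no set either, and only the primary tumours, present in sets B and C, link those groups. Cell lines could be compared with primary tumours inside set C, and secondary with primary tumours inside set B.

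All 6 genes had a probe set that was higher in both kinds of tumour than in cultured osteoblasts and lower in cell lines than in either kind of tumour. A probe set was called changed when limma's p-value, adjusted over all 27308 tested probe sets, was under 0.05 and the fold was at least 2. In cell lines against primary tumours 6 of 7 probe sets were called lower and none higher, while 15.3% of all probe sets were called and 10.8% were called lower. In secondary tumours against osteoblasts 6 of 7 were called higher and none lower, with 22.9% of all probe sets called and 12.9% called higher. In primary tumours against osteoblasts 6 of 7 were called higher and none lower, with 22.2% of all called and 11% called higher. In cell lines against osteoblasts 2 of 7 were called lower, those of Cdh5 (1433956_at) and Pecam1, with 7.35% of all called and 5.82% called lower. In cell lines against secondary tumours 6 of 7 were called lower, with 17.6% of all called and 12.9% called lower. The probe set left out of the counts of 6 was the other one for Cdh5, 1422047_at.

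The median log2 difference of the 7 probe sets was -2.81 in cell lines minus primary tumours, against -0.088 over all tested probe sets. It was 1.92 in secondary tumours minus osteoblasts, against 0.082 over all. It was 1.74 in primary tumours minus osteoblasts, against 0.036 over all, and -0.60 in cell lines minus osteoblasts, against -0.064 over all. These comparisons share osteoblast or primary tumour arrays, so they are not separate observations. In such bulk samples fewer endothelial cells and less RNA of these genes per cell cannot be told apart.

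**Figure D1:**
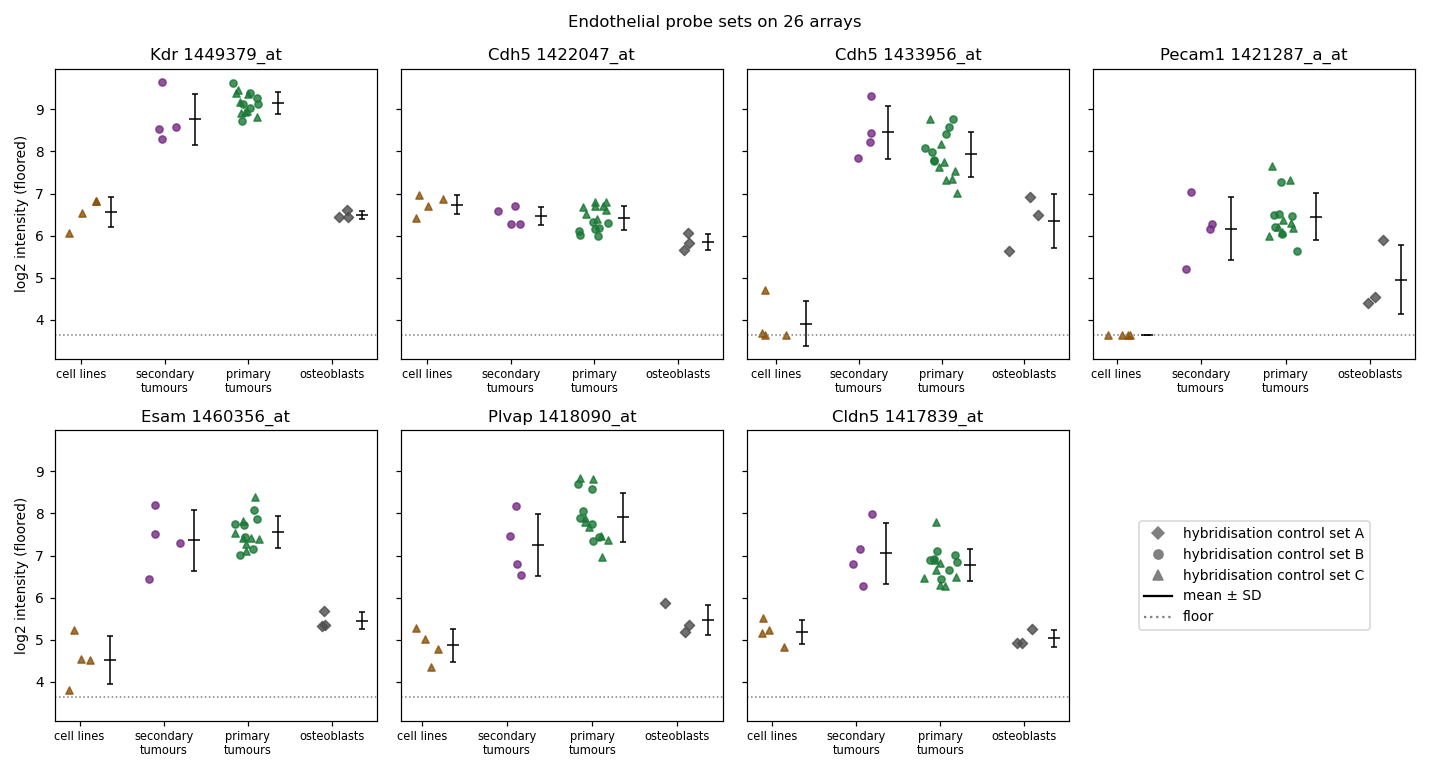
Log2 intensity, raised to the floor of 3.64 where lower, of each of the 7 probe sets on 26 arrays, with groups along the horizontal axis, 1 point per array, marker shape for the hybridisation control set, and mean ± SD bars. For 6 probe sets the cell lines lie below all primary tumours. Only on Cdh5 1422047_at do these groups overlap, and there lines 179 and 213 lie above all other arrays.

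Kdr (1449379_at), the main signalling receptor for VEGF-A, separated tumour tissue from cultured cells with no overlap. Its intensities were 92.8, 113, 66.5 and 114 in cell lines 176, 179, 182 and 213, and 368, 806, 380.5 and 315 in secondary tumours 29, 64, 66 and 94. In primary tumours the lowest was 419 (tumour 94), the median 563 and the highest 785 (tumour 12), and the osteoblast cultures had 87.7, 97.9 and 86.4. Every tumour array thus lay above every cell line and osteoblast array, while the cell line and osteoblast values overlapped. On the log2 scale Kdr averaged 6.56 ± 0.36 in cell lines (SD, n = 4) and 9.16 ± 0.26 in primary tumours (n = 15), a 6.04-fold lower level (log2 difference -2.59, SE 0.187, limma adjusted p = 3.26e-10). It was 6.30-fold higher in primary tumours than in osteoblasts, which averaged 6.50 ± 0.10 (n = 3; log2 difference 2.65, SE 0.21, limma adjusted p = 4.74e-10). Secondary tumours, at 8.76 ± 0.61 (n = 4), were 4.80-fold above osteoblasts (limma adjusted p = 2.86e-07). Cell lines and osteoblasts differed by 0.061 ± 0.254 (log2 difference ± SE), which did not pass the test (limma adjusted p = 0.917).

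Cdh5, the VE-cadherin of endothelial adherens junctions, gave the largest difference of the 6 genes between cell lines and tumours on its brighter probe set, 1433956_at. Intensities there were 3.32, 8.77, 26 and 12.8 in cell lines 176, 179, 182 and 213, and 300.2, 634, 348 and 228 in secondary tumours 29, 64, 66 and 94. Primary tumours ran from 129.8 (tumour 182) through a median of 222 to 439 (tumour 66), and the osteoblast cultures had 50.2, 121 and 89.7. Lines 176 and 179 lay under the floor of 12.5, below which values were treated as equal, and all 4 lines were below all 3 osteoblast cultures, which were below all tumours. The level in cell lines was 16.2-fold lower than in primary tumours (log2 difference -4.02, SE 0.3, limma adjusted p = 5.36e-10) and 5.41-fold lower than in osteoblasts (-2.43, SE 0.407, limma adjusted p = 0.000203). It was 4.30-fold higher in secondary tumours than in osteoblasts (limma adjusted p = 0.000264) and 2.99-fold higher in primary tumours than in osteoblasts (limma adjusted p = 0.000479). With 2 of 4 cell line arrays at the floor, the size of the first difference depends on it: it was -2.88 when the 40th percentile of intensities served as the floor and -4.62 when an intensity of 1 did.

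Pecam1 (1421287_a_at), the adhesion molecule CD31 of endothelium, platelets and some leukocytes, was close to or under the floor in all cell lines. Its intensities were 11.8, 4.07, 12.5 and 7.30 in cell lines 176, 179, 182 and 213, and 71.2, 131, 78.2 and 36.9 in secondary tumours 29, 64, 66 and 94. Primary tumours ran from 49.8 (tumour 119) through a median of 78.7 to 202 (tumour 183), and the osteoblast cultures had 21.3, 59.7 and 23.5. Osteoblast culture 2 stood above the other 2 cultures and inside the range of both kinds of tumour. With 3 of 4 cell lines raised to the floor and line 182 just above it, the floor sets the size of the cell line differences of Pecam1. At this floor it was 7.01-fold lower in cell lines than in primary tumours (log2 difference -2.81, SE 0.31, limma adjusted p = 2.14e-07). The difference was -1.39 with the 40th percentile as the floor and -3.42 with a floor at an intensity of 1, called each time. Pecam1 was 2.82-fold higher in primary tumours than in osteoblasts (1.49, SE 0.349, limma adjusted p = 0.00113). The difference of cell lines from osteoblasts, -1.32 ± 0.42 (SE), passed narrowly (limma adjusted p = 0.0392). That call was lost when culture 2 was left out (-0.84, limma adjusted p = 0.29) and when any 1 cell line was left out (-1.32 to -1.31, adjusted p between 0.0644 and 0.0722). Secondary tumours were 2.32-fold above osteoblasts (1.21, SE 0.421, limma adjusted p = 0.0242), a call lost without culture 1, culture 3 or secondary tumour 64 (0.94, 1.01 and 0.93).

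Esam (1460356_at), an adhesion molecule of endothelial tight junctions and platelets, had its lowest values in cell lines, then in osteoblasts, then in tumours. Its intensities were 22.8, 37.4, 23.2 and 14.03 in cell lines 176, 179, 182 and 213, and 156, 295, 184 and 87.3 in secondary tumours 29, 64, 66 and 94. Primary tumours ran from 129 (tumour 119) through a median of 173 to 338 (tumour 183), and the osteoblast cultures had 40.2, 51.2 and 40.5. The lines lay below the osteoblasts and the osteoblasts below every tumour, with no overlap between neighbours in that order. Esam was 8.19-fold lower in cell lines than in primary tumours (log2 difference -3.03, SE 0.252, limma adjusted p = 2.95e-09). It was 3.77-fold higher in secondary tumours than in osteoblasts (limma adjusted p = 0.000113) and 4.30-fold higher in primary tumours than in osteoblasts (2.10, SE 0.283, limma adjusted p = 2.06e-06). Cell lines against osteoblasts gave -0.93 ± 0.34 (SE), which did not pass (limma adjusted p = 0.0743), and without line 179 it did (-1.16, limma adjusted p = 0.0338).

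Cldn5 (1417839_at), the claudin that seals endothelial tight junctions and is best known from the blood-brain barrier, was called higher in both kinds of tumour than in osteoblasts and lower in cell lines than in either. Its intensities were 36.01, 37.5, 45.6 and 28.5 in cell lines 176, 179, 182 and 213, and 112, 254, 143 and 76.9 in secondary tumours 29, 64, 66 and 94. Primary tumours ran from 77.2 (tumour 179) through a median of 114 to 224 (tumour 183), and the osteoblast cultures had 30.4, 38.5 and 30.1. Tumours stood above the other arrays without overlap, whereas cell lines and osteoblasts overlapped and differed by 0.15 ± 0.32 (log2 difference ± SE, limma adjusted p = 0.816). Cldn5 was 3.00-fold lower in cell lines than in primary tumours (-1.59, SE 0.233, limma adjusted p = 1.02e-05). It was 4.05-fold higher in secondary tumours than in osteoblasts (limma adjusted p = 2.59e-05) and 3.33-fold higher in primary tumours than in osteoblasts (limma adjusted p = 9.16e-06).

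Plvap (1418090_at), the diaphragm protein of fenestrated and sinusoidal endothelium, had intensities of 39.1, 32.6, 27.7 and 20.6 in cell lines 176, 179, 182 and 213, and 111, 288, 177 and 92.8 in secondary tumours 29, 64, 66 and 94. Primary tumours ran from 125 (tumour 176) through a median of 221 to 462 (tumour 188), and the osteoblast cultures had 40.6, 58.7 and 36.6. Every tumour lay above every culture, and the cell line and osteoblast values overlapped. Plvap was 8.21-fold lower in cell lines than in primary tumours (log2 difference -3.04, SE 0.307, limma adjusted p = 5.63e-08). It was 3.41-fold higher in secondary tumours than in osteoblasts (limma adjusted p = 0.00164) and 5.40-fold higher in primary tumours than in osteoblasts (limma adjusted p = 4.14e-06). Cell lines minus osteoblasts came to -0.60 ± 0.42 (SE), which did not pass (limma adjusted p = 0.378).

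The arrays of the 2 groups did not overlap for 6 of 7 probe sets in cell lines against primary tumours, where 11.7% of all probe sets did not overlap. The count was 5 of 7 in primary tumours against osteoblasts (28.1% of all), 6 of 7 in secondary tumours against osteoblasts (54.9%), 4 of 7 in cell lines against osteoblasts (37.2%) and 6 of 7 in cell lines against secondary tumours (35.9%). The share of all probe sets without overlap was highest where both groups were small. Cell lines and primary tumours share hybridisation control set C, where the calls were the same. With the set as a block, the log2 differences of cell lines minus primary tumours were -2.57 for Kdr, -3.78 for Cdh5 1433956_at, -2.88 for Pecam1, -3.02 for Esam, -2.99 for Plvap and -1.53 for Cldn5, all called by limma. Against the 8 primary tumours of set C alone and against the 7 of set B alone, the same 6 were called. The 6 called in primary tumours against osteoblasts also stayed at 6 with either set of primary tumours.

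The design also allows secondary tumours to be set against primary ones. Limma called 0 of the 7 probe sets, in a comparison where it called 2 of 27308 (0.00732%), and those of Kdr and Plvap were 2 of 7 with an unadjusted p under 0.05, against 9.91% of all. Log2 differences of secondary minus primary tumours, with same-numbered arrays not paired, were -0.39 (SE 0.187) for Kdr, 0.52 (SE 0.3) for Cdh5 1433956_at, -0.28 (SE 0.31) for Pecam1, -0.19 (SE 0.252) for Esam, -0.66 (SE 0.307) for Plvap and 0.28 (SE 0.233) for Cldn5. With the tumour number as a block on same-numbered arrays, Kdr had -0.37 (SE 0.184), Cdh5 1433956_at 0.016 (SE 0.194) and Pecam1 -0.40 (SE 0.272). Esam had -0.30 (SE 0.224), Plvap -0.72 (SE 0.345) and Cldn5 0.14 (SE 0.24), and none of the 7 probe sets was called with this block. The ranges of the 2 groups overlapped for all 7 probe sets, where 0.132% of all probe sets did not overlap. Inside set B the 7 differences ran from -0.72 to 0.31 and none was called.

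Arrays that carry the same tumour number in both groups were set side by side. For each of the 6 probe sets above, cell lines 176, 179 and 182 were lower than the primary tumours of the same number. The log2 differences ran from -2.89 to -2.44 for Kdr, -3.71 to -2.32 for Cdh5 1433956_at, -2.74 to -2.35 for Pecam1, -2.85 to -2.18 for Esam, -2.86 to -1.67 for Plvap and -1.71 to -1.04 for Cldn5. Secondary tumours did not move one way. Secondary tumour 64 was higher than primary tumour 64 on all 7 probe sets, with log2 differences from 0.26 for Kdr to 0.98 for Cldn5. Secondary tumours 29 and 94 were each lower on 6 of 7, and 66 was lower on 5 of 7. The single largest fall was in Plvap of number 29, with an intensity of 111 in the secondary and 415 in the primary tumour (-1.90). The probe set Cdh5 1422047_at was the only one higher in all 4 secondary tumours (0.11 to 0.43). Among the secondary tumours, 64 was the highest and 94 the lowest for all 6 genes on their brightest probe sets.

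**Figure D2:**
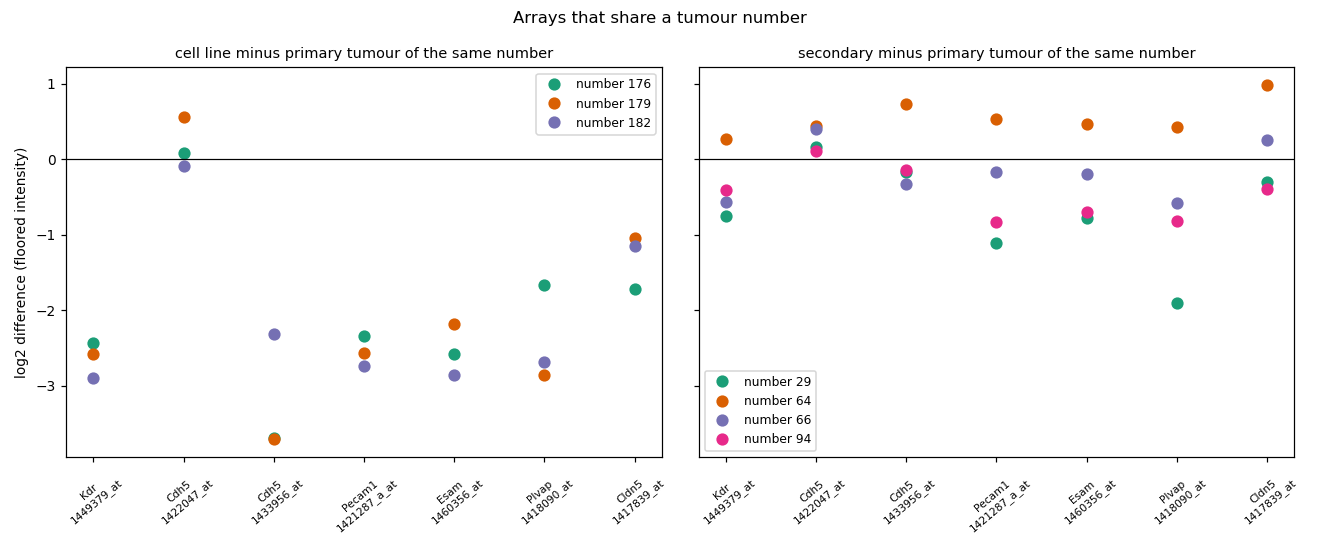
Log2 difference in floored intensity, per probe set on the horizontal axis, of cell line minus primary tumour (left) and secondary minus primary tumour (right) of the same number, 1 point per number. All points of 6 probe sets lie below 0 on the left, and on the right number 64 lies above 0 throughout.

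Cdh5 was the only one of the 6 genes with 2 probe sets, so it alone allowed the array's readings of one gene to be compared. By the platform annotation, 1422047_at was designed from a RefSeq transcript and 1433956_at from an expressed sequence tag. On 1422047_at, intensities were 104, 124, 86.0 and 117 in cell lines 176, 179, 182 and 213, and 77.8, 96.0, 105 and 78.2 in secondary tumours 29, 64, 66 and 94. Primary tumours ran from 63.7 (tumour 119) through a median of 84.7 to 111 (tumour 183), and the osteoblast cultures had 56.4, 50.8 and 66.5. Lines 179 and 213 were the highest of all 26 arrays on this probe set, whereas all 4 lines were the lowest on the other.

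No comparison called 1422047_at. Its log2 differences were 0.32 (SE 0.153, limma adjusted p = 0.0968) in cell lines minus primary tumours and 0.89 (SE 0.208, limma adjusted p = 0.00489) in cell lines minus osteoblasts. They were 0.62 (limma adjusted p = 0.0198) in secondary tumours minus osteoblasts and 0.57 (limma adjusted p = 0.00813) in primary tumours minus osteoblasts. The last 3 passed on p but not on the fold of 2. The difference between the probe sets on one array, 1433956_at minus 1422047_at on the log2 scale, averaged -2.82 ± 0.74 in cell lines (SD, n = 4), 1.99 ± 0.52 in secondary tumours (n = 4), 1.51 ± 0.65 in primary tumours (n = 15) and 0.50 ± 0.71 in osteoblasts (n = 3).

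Set against each other, cell lines and primary tumours differed by -4.34 in this within-array difference, with no overlap (two-sided exact permutation test, p = 0.000516, the smallest that 4 against 15 arrays can give; adjusted over 3 tests, p = 0.00155). It was -3.20 with the floor at the 40th percentile. Primary tumours minus osteoblasts gave 1.01 (exact permutation p = 0.0368, adjusted p = 0.0551), a value that depends on the control sets of the tumours. It was 1.54 against set B alone and 0.54 against set C alone (exact permutation test, adjusted p = 0.025 and 0.182). Secondary tumours minus osteoblasts gave 1.48 (exact permutation p = 0.0571, the smallest that 4 against 3 arrays can give). The probe sets of Cdh5 therefore did not report the same group difference where cell lines were involved.

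Between the hybridisation control sets of the primary tumours, the mean levels of the Cdh5 probe sets also differed in opposite directions. These differences were not tested, and only 1422047_at divided the sets. On 1422047_at the 8 tumours of set C ran from 84.7 to 111 and the 7 of set B from 63.7 to 79.9, with no overlap (log2 difference of C minus B 0.50), which held for 4.65% of all tested probe sets. On 1433956_at set C ran from 129.8 to 438 and set B from 218 to 439, overlapping (-0.50). The other 5 probe sets overlapped between the sets, with differences from -0.13 to 0.14. The Gapdh 5′ over 3′ ratio also divided these tumours without overlap, at 0.909 to 1.03 in set C and 0.656 to 0.845 in set B, and its part was not tested. Over all 15 primary tumours the Cdh5 probe sets had r = -0.16 (Spearman rho -0.15; permutation p = 0.565 and 0.586, the first 0.565 after adjustment over 16 relations). Within set B r was 0.63 (n = 7) and within set C it was 0.77 (n = 8), with adjusted exact permutation p = 0.177 and 0.0584. With the set as a block, 1422047_at differed by 0.087 between cell lines and primary tumours (SE 0.117). In cell lines minus secondary tumours its sign turned, from 0.27 over all arrays to -0.22 with the block, and neither was called.

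**Figure D3:**
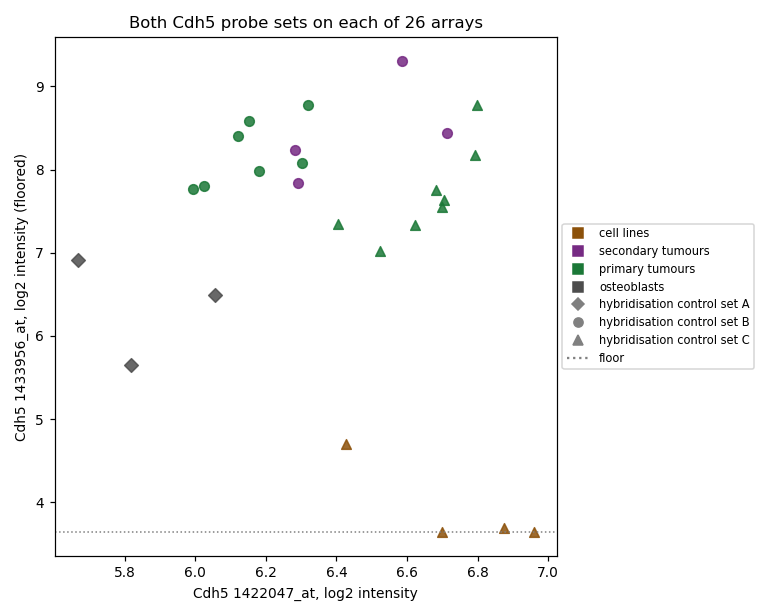
Log2 intensity of Cdh5 1433956_at (vertical, raised to the floor of 3.64 where lower) against Cdh5 1422047_at (horizontal) on each of 26 arrays, coloured by group and shaped by hybridisation control set. The 4 cell lines fall to the lower right, low on 1433956_at and high on 1422047_at, and primary tumours of sets B and C form parallel clouds.

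The 15 primary tumours differed among themselves by 1.87-fold for Kdr, 2.62-fold for Esam, 2.90-fold for Cldn5, 3.38-fold for Cdh5 1433956_at, 3.71-fold for Plvap and 4.06-fold for Pecam1, highest over lowest array. The same tumours were high for several genes. Tumour 183 was among the highest 3 for all 6 genes and the highest for Pecam1, Esam and Cldn5. Tumour 29 was among the highest 3 for 4 genes. Tumours 94 and 176 were each among the lowest 3 for 4 genes, and tumour 119 for 3.

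Over the primary tumours the 15 pairs of genes had Pearson correlations of log2 intensity from 0.44 to 0.93, with a median of 0.69. The pairs share arrays and their array-wide scaling, and they are not independent of each other. For scale, the median correlation of each of the 6 genes with all 12886 other genes lay between 0.038 and 0.086, and the 95th percentile between 0.48 and 0.58. Pecam1, Esam and Plvap were closest: Pecam1 and Esam had r = 0.93 and rho = 0.94 (permutation p = 1e-05 for each, the smallest given; adjusted p = 5.33e-05 and 0.00016). Without tumours 183 and 188 r was 0.92. Esam and Plvap had r = 0.90 and rho = 0.89, with permutation p = 1e-05 and 3e-05 (adjusted p = 5.33e-05 and 0.00024), and Pecam1 and Plvap r = 0.87 and rho = 0.86, with permutation p = 1e-05 and 5e-05 (adjusted p = 5.33e-05 and 0.000267).

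In all, 12 of 15 pairs passed a permutation test of r after Benjamini-Hochberg adjustment over 16 relations, and 12 passed for rho. The 3 that missed for r all involved Kdr, with Cdh5 (r = 0.44), Pecam1 (0.50) and Cldn5 (0.45). Plvap with Cldn5 passed for r (0.58) and missed for rho (0.47). Within set B the 15 correlations ran from 0.31 to 0.95 and 5 passed an exact permutation test after adjustment. Within set C they ran from 0.41 to 0.95 and 6 passed, none of them a pair with Cldn5. There the pairs with Cldn5 had lower rho, from 0.095 (Plvap) to 0.40 (Pecam1), than r, from 0.41 (Kdr) to 0.79 (Pecam1). Over all primary tumours, leaving out the 2 tumours farthest from the median of the first gene of a pair gave r from 0.41 to 0.92. The largest drop was for Esam with Cldn5, from r = 0.77 to 0.48 without tumours 183 and 29, so that relation rests in part on those arrays.

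**Figure D4:**
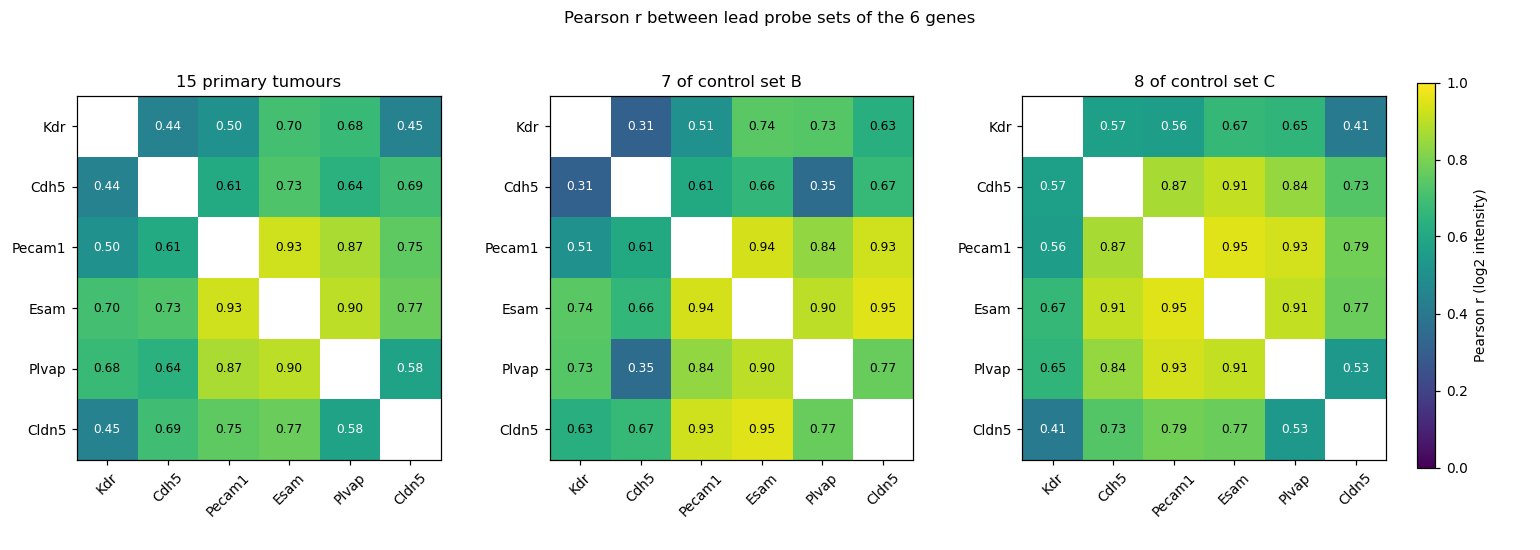
Pearson r of log2 intensity between the 6 genes, each by its brighter probe set, over 15 primary tumours (left), the 7 of hybridisation control set B (middle) and the 8 of set C (right), on a colour scale from 0 to 1. Pecam1, Esam and Plvap correlate at 0.84 to 0.95 in all 3 panels, and in set B the correlations of Pecam1 and Esam with Cldn5 are as high (0.93 and 0.95).

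Each of the 6 genes was then set against every other gene, by the probe set with the highest mean, over the 15 primary tumours. The genes most like Pecam1 were Robo4, a guidance receptor of endothelium (r = 0.96), Esam (0.93) and the transcription factor Sox18 (0.88). Those most like Esam were Pecam1 (0.93), Robo4 (0.92) and Plvap (0.90). Those most like Plvap were Hsd11b1, an enzyme that regenerates active glucocorticoid (0.95), the adhesion receptor Adgrf5 (0.91) and Esam (0.90). Those most like Cdh5 were the transcription factor Sox7 (0.88), the transcription factor Atf7 (0.84) and the secreted endothelial factor Egfl7 (0.84).

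Kdr and Cldn5 had other neighbours. Those most like Kdr were the phospholipase Pla2g4a (0.83), the RNA-editing enzyme Apobec1 (0.78) and AU021092 (0.78). Those most like Cldn5 were the cytokine Lif (0.85), Sclt1 (0.84) and Shtn1 (0.83). Of these 18 places, 9 were taken by one of the 6 genes or by genes of endothelial lists described next. Those lists are other endothelial markers, genes of VEGF, angiopoietin, apelin and Notch signalling, and transcription factors known from endothelium. Tek and Tie1 are in the first and the second of them. Together with the 6 genes, the lists hold 66 of the 12887 genes measured. Pecam1 with Esam and Esam with Plvap appear from both sides, and Robo4 appears for both Pecam1 and Esam. The places are therefore not separate observations, and the lists were chosen with earlier results of these data known. Among the 12886 genes ordered by likeness, the other 5 members ranked between 1 and 156 for Esam, 2 and 962 for Pecam1, 3 and 643 for Plvap, 26 and 1248 for Cldn5, 27 and 886 for Kdr, and 62 and 1554 for Cdh5.

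Other genes of the vessel wall were counted by list, to be read against the shares of all probe sets called, 15.3% in cell lines against primary tumours and 22.2% in primary tumours against osteoblasts. Of 22 tested other endothelial markers, 10 were lower and none higher in cell lines than in primary tumours (median log2 difference -0.92, against -0.088 over all probe sets). Cd93, a surface receptor of endothelium and myeloid cells, fell by 3.87. The water channel Aqp1 fell by 2.50, the orphan receptor Tie1 by 2.13, the adhesion molecule Mcam by 1.92, the phosphatase Ptprb (VE-PTP) by 1.51 and the lipase anchor Gpihbp1 by 1.28. In primary tumours against osteoblasts 10 were higher and 1 lower (median 0.57, against 0.036 over all). Cd93 rose by 2.01, Rasip1, a regulator of vessel lumen formation, by 1.95, Ptprb by 1.89, Tie1 by 1.07 and Aqp1 by 1.05, while Ramp2, the co-receptor for adrenomedullin, was lower by 2.54 on the log2 scale (difference -2.54). Secondary tumours against osteoblasts had 8 higher and 2 lower, where 22.9% of all probe sets were called and 12.9% called higher. Cell lines against osteoblasts had none higher and 5 lower, where 7.35% of all were called and 5.82% called lower. Tek, Emcn and Egfl7, all known from endothelium, differed between primary tumours and osteoblasts by 0.36, 0.17 and 0.53 on the log2 scale and were not called.

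Of 24 genes of VEGF, angiopoietin, apelin and Notch signalling, 5 were higher and 7 lower in cell lines than in primary tumours, and 7 were higher and 7 lower in primary tumours than in osteoblasts. Over all probe sets 15.3% and 22.2% were called in these comparisons, and the list medians were -0.28 (all probe sets -0.088) and 0.41 (all 0.036). The apelin receptor Aplnr was at the floor in all cell lines and all osteoblast cultures and averaged 7.73 ± 0.77 on the log2 scale in primary tumours (SD, n = 15). It was therefore at least 17.1-fold lower in cell lines than in primary tumours and at least 17.1-fold higher in primary tumours than in osteoblasts. The ligand Vegfc was higher in cell lines than in primary tumours by 2.35 and the Notch ligand Jag1 by 1.02. The co-receptor Nrp2 fell by 2.22 and the ligand Pgf by 1.15 in cell lines, and Esm1, a proteoglycan of sprouting endothelium, did not exceed the floor in any line and was at least 4.66-fold lower there than in primary tumours. In primary tumours against osteoblasts, Angpt1, the ligand of Tek, was -6.00 on the log2 difference scale, a size that the floor limits because 8 of 15 primary tumours lay at it. The other differences were Esm1 -4.22, Vegfd -4.17, Angpt2 -1.05 and Vegfb -1.04. The ligand Vegfa and its receptor Flt1 were not called there (-0.20 and -0.19).

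Of 16 transcription factors known from endothelium, 1 was higher and 9 lower in cell lines than in primary tumours (median -1.07, against -0.088 over all). Epas1, the hypoxia-inducible factor HIF-2α, fell by 3.15, Lmo2, a partner in blood and vessel transcription complexes, by 2.69, Fli1 and Sox7 by 1.96 each, Erg by 1.12 and Ets1 by 1.02. In primary tumours against osteoblasts 8 were higher and 1 lower (median 0.88, against 0.036 over all). Lmo2 rose by 3.33, Bcl6b by 2.13, Sox7 by 1.89 and Fli1 and Ets1 by 1.04 each, while Foxc2, which also acts in mesenchyme, had a log2 difference of -2.01. Lmo2, Fli1 and Ets1 are also known from blood cells.

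The 13 tested junction partners, many of them present in most cell types, did not follow the 6 genes. Of these, 2 were higher and none lower in cell lines than in primary tumours, and 1 was higher and 2 lower in primary tumours than in osteoblasts. The medians were 0.23 and -0.15, against -0.088 and 0.036 over all probe sets. Over all probe sets 15.3% and 22.2% were called in these comparisons, so the counts of this list lie near those shares. The caveolin genes Cav1 and Cav2 were the 2 that were higher in cell lines, by 2.48 and 1.03, and lower in primary tumours than in osteoblasts (-3.34 and -2.14). The connexin Gja4 was the one that was higher in primary tumours than in osteoblasts (1.07). The beta-catenin gene Ctnnb1, whose product binds the tail of Cdh5, differed by -0.64 between cell lines and primary tumours, under the fold asked. Of 4 tested lymphatic genes none was called in primary tumours against osteoblasts, and Lyve1, a hyaluronan receptor also found on macrophages, was the only one lower in cell lines than in primary tumours (-1.17).

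**Figure D5:**
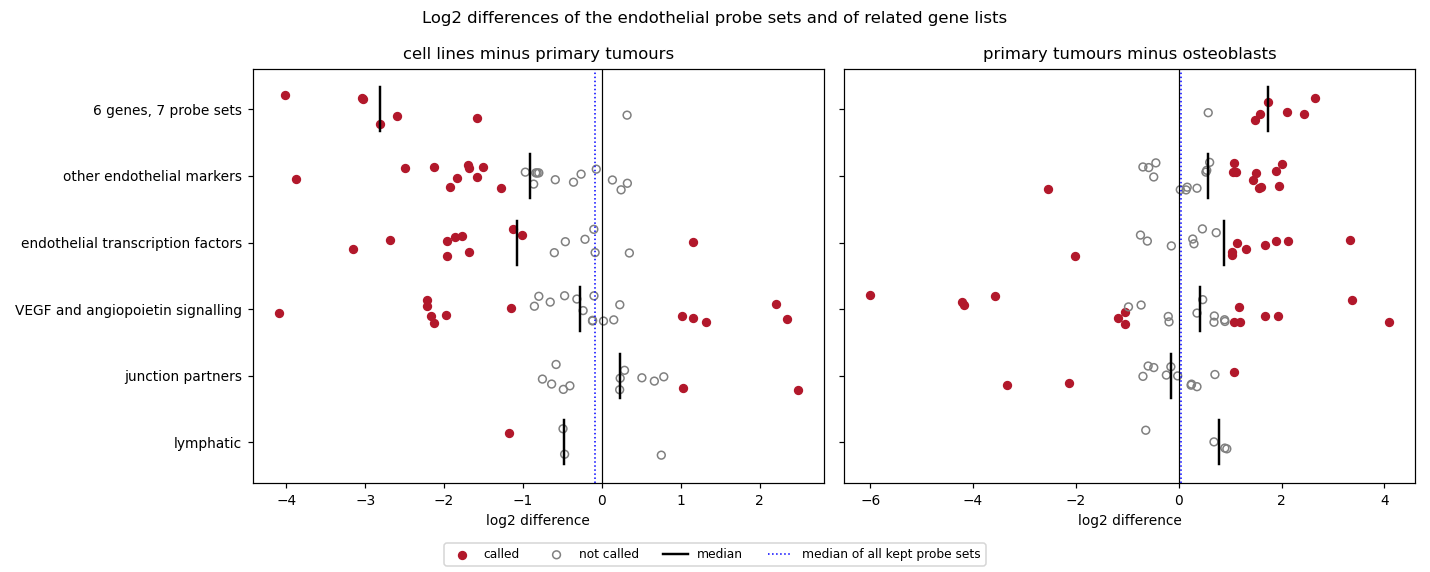
Log2 differences of cell lines minus primary tumours (left) and of primary tumours minus osteoblasts (right) for the 7 probe sets and for the tested genes of 5 related lists, filled where called, with a bar at each list's median and a dotted line at the median of all tested probe sets. The 6 called probe sets lie between -4.02 and -1.59 on the left and between 1.49 and 2.65 on the right.

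Markers of other cell types moved with the same comparisons. Of 10 tested macrophage markers, 10 were lower in cell lines than in primary tumours and 10 higher in primary tumours than in osteoblasts, and for pan-leukocyte markers it was 5 of 5 both times. Summed macrophage intensities were 451 to 687 in cell lines, 4720.4 to 16312 in secondary tumours, 4749 to 23195 in primary tumours and 493 to 522 in osteoblasts. Of 5 tested platelet markers 2 were lower in cell lines than in primary tumours and 2 higher in primary tumours than in osteoblasts, with sums of 372 to 450.3 in cell lines, 893 to 1257 in secondary tumours, 887 to 4437 in primary tumours and 332 to 409 in osteoblasts. Pecam1 and Esam are known from platelets as well as endothelium. Leukocyte sums were 179.8 to 225 in cell lines, 609.9 to 2326 in secondary tumours, 690.0 to 3245 in primary tumours and 147 to 177 in osteoblasts. The part of these cells in the levels of the 6 genes was not tested.

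Adipocyte markers went the other way in primary tumours against osteoblasts. All 7 tested were called lower in each of the other groups than in the osteoblast cultures. In cell lines against primary tumours 1 of the 7 was higher and 3 were lower (median -0.79, against -0.088 over all probe sets). Their sums were at most 4622 in cell lines, 3083 in secondary tumours and 2058 in primary tumours, against 29288 to 30043 in osteoblasts, and their part in the comparisons with osteoblasts was not tested. Of 10 pericyte and smooth muscle markers 1 was higher and 5 lower in cell lines than in primary tumours, and 2 were higher and 2 lower in primary tumours than in osteoblasts. Of 6 tested osteoblast markers 5 were called lower in cell lines than in primary tumours (median -2.56), among them the mineralisation genes Dmp1 (-4.34), Ibsp (-3.76) and Alpl (-2.69). In primary tumours against osteoblasts 3 of the 6 were called higher and none lower (median 0.82). Their part in the results for the 6 genes was not tested. Their summed intensities, in which the collagen gene Col1a1 had the highest mean level of the 6 in cell lines, primary tumours and osteoblasts, were 10873 to 19068 in cell lines, 22531 to 32790.1 in secondary tumours, 16749.7 to 34758 in primary tumours and 21829 to 23233 in osteoblasts. The 2 tested erythroid and 3 tested epithelial markers were not called in cell lines against primary tumours or in primary tumours against osteoblasts.

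Among the 15 primary tumours, the 6 genes were also set against the mean log2 level of each of 5 other marker lists, 30 relations in all. Correlations with the pericyte list ran from 0.55 to 0.86, and 4 of 6 passed a permutation test of r after adjustment over the 30 (adjusted p from 0.0009 to 0.0591). Esam had the highest (r = 0.86 and rho = 0.88, permutation p = 3e-05 and 7e-05, adjusted p = 0.0009 and 0.00105; 0.97 in set B and 0.83 in set C). Mcam is in the pericyte list and in the endothelial list. For leukocytes 4 of 6 passed (r from 0.40 to 0.74), with 0.0097 to 0.79 in set B, 0.32 to 0.92 in set C and 0.22 to 0.61 without tumours 12 and 183. For platelets 4 of 6 passed for r (0.38 to 0.78) and none for rho. The platelet relations were not the same in both control sets, at -0.15 to 0.41 in set B and 0.46 to 0.93 in set C, and were at most 0.48 without tumours 188 and 183. For macrophages (0.16 to 0.56) and osteoblast markers (0.25 to 0.49) none of 6 passed on r (lowest adjusted p = 0.0524 and 0.0735), and 3 of the 6 unadjusted p-values for macrophages were under 0.05.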

How the data were processed

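Per the labels' protocols, total RNA was reverse transcribed with a T7-tailed oligo-dT primer, copied into biotinylated cRNA and hybridised to 1-colour arrays. The authors deposited 1 linear intensity per probe set and array, and the sources used here do not give the software, background correction or scaling behind it. The series' table of 45101 probe sets, 64 of them controls, was used as deposited. Of the 45037 others, 34945 carried 1 gene symbol in the platform annotation, 932 several and 9160 none, with symbols updated through a RefSeq table of GRCm38.p6 in which 34741 matched by gene identifier. No 2 arrays were copies: the closest correlated at 0.967, and a pair shared at most 0.732% identical values.

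Intensities under the 20th percentile of all values (12.5, or 3.64 on the log2 scale) were raised to it, and log2 was taken. Probe sets with at least 3 arrays above the median of all values (52.6) were kept, 27308 in all, and a gene's brightest kept probe set over all arrays stood for it in gene lists and correlations (12887 genes). limma 3.58.1 in R 4.3.3 (lmFit, contrasts, eBayes) fitted the 4 groups over all 26 arrays, with Benjamini-Hochberg adjustment over all kept probe sets. A call needs an adjusted p under 0.05 and a fold of at least 2. Folds against a group with every array at the floor are lower bounds ("at least"). Exact permutation tests of differences between probe sets, and the correlation coefficients, used SciPy 1.17.1. Permutation p-values of correlations, from 100000 resamples or exact within a control set, were computed with NumPy 2.4.6. The fit was tested on simulated data. The number of arrays limits the precision.

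The control sets were found from ratios of hybridisation-control probe sets (bioB to bioC, divided at 0.8, and bioD 5′ to 3′, divided at 0.55). They are not a batch that the labels name. Alternatives were the floor, the filter, the scaling, array weights, 1 probe set per gene, the groups fitted, the control set or the tumour number as a block, and each array left out. Same-numbered secondary and primary tumours deviated together from their group means over all kept probe sets (r = 0.23 to 0.62 for 4 pairs, each highest with its own number), so these numbers pair samples; the labels carry the numbers. Named list genes are the called ones with the 4 largest and 2 smallest differences of a list, the 3 genes most alike are named for each member, and Tek, Emcn, Egfl7, Vegfa, Flt1 and Ctnnb1 were added after their values were seen. The 6 genes, the 5 gene lists, the 9 marker lists and the tests were chosen with earlier results of these data known.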

Additional observations from a re-analysis of the deposited data

Results flagged for a closer look

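In each group of 4 cell lines or 4 secondary tumours, the array farthest from the others was compared with Dixon's 95% limit, 14 groups in all. Chance alone marks about 1 group in 20. Cell line 182 stood apart as the highest line in 2 of them. Its intensity on Cdh5 1433956_at was 26, against 3.32, 8.77 and 12.8 in the other lines, and on Pecam1 it was 12.505, against 11.8, 4.07 and 7.30. Both marks come from the floor of 12.456, to which lines 176 and 179 were raised for Cdh5 and all 3 other lines for Pecam1. The gap over the range was 0.958 for Cdh5 and 1 for Pecam1 with the floor, and 0.342 and 0.0506 on log2 values without it, both under that limit. Leaving line 182 out gave log2 differences of -4.28 for Cdh5 1433956_at and -2.81 for Pecam1 in cell lines minus primary tumours.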

How the results depend on the processing

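The counts of 6 called probe sets in primary tumours against osteoblasts, in cell lines against primary tumours and in cell lines against secondary tumours were the same under every alternative run for them but one, each array left out included. The exception was the filter at the 75th percentile, which left 4 of the 7 to test (without Pecam1, Cldn5 and Cdh5 1422047_at), all called in these comparisons and in secondary tumours against osteoblasts. In cell lines against osteoblasts the count of 2 became 1 with the floor at the 40th percentile (Pecam1 -0.28), with no filter (-1.32), with the filter at the 75th percentile, where Pecam1 was not tested, and ranged from 1 to 2 when single arrays were left out. Scaling to a common 75th percentile ended the Pecam1 call there (-1.18) and brought that of Cdh5 1422047_at (1.07). In secondary tumours against osteoblasts the Pecam1 call also ended with the floor at the 40th percentile (0.83), quantile normalization (0.93) and only both groups in the fit (1.21, adjusted p = 0.0678), and the count ranged from 5 to 6 over single arrays left out.

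No other call of a member that was tested was lost in these alternatives. Signs turned only for small differences that were never called. These were Kdr in cell lines minus osteoblasts (-0.025 without line 179 and -0.030 without line 213, up to 0.23 over single arrays left out) and Cdh5 1422047_at in cell lines minus secondary tumours (-0.22 with the control set as a block). In secondary minus primary tumours they were Cdh5 1422047_at (-0.021 with quantile normalization, -0.033 with 75th percentile scaling, -0.036 without secondary tumour 66, -0.19 against set C alone), Cldn5 (-0.030 without tumour 64, up to 0.54), Pecam1 (0.042 without tumour 94, down to -0.57) and Esam (0.12 without tumour 94, down to -0.47). The Cdh5 within-array difference in primary tumours minus osteoblasts passed after quantile normalization (1.13, exact permutation test, adjusted p = 0.0294) and against set B alone (1.54, adjusted p = 0.025, chosen after seeing the data). After quantile normalization r of Kdr with Pecam1 passed as well (0.55, permutation test, adjusted p = 0.0418). The causes were not tested.

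With fewer probe sets tested, counts over all probe sets were smaller. For primary tumours against osteoblasts (6053), cell lines against osteoblasts (2008), secondary tumours against osteoblasts (6241), cell lines against primary tumours (4180), secondary against primary tumours (2) and cell lines against secondary tumours (4806), the filter at the 75th percentile gave 3543, 1328, 3609, 2417, 1 and 2689, and 1 probe set per gene gave 2378, 1059, 2381, 1514, 1 and 1697. With all 27308 tested the counts also moved, and the cause was not tested. For secondary against primary tumours the count was 1 with the floor at the 40th percentile, 4 with only these groups in the fit, 4 without secondary tumour 66, 5 with the control set as a block, 12 against set B alone, 746 against set C alone, 4 over the arrays that share a number (an alternative chosen after seeing the data), 4 with the replicate number as a block on those arrays, and 2 to 4 over single arrays left out. Cell lines against secondary tumours gave 2060 with the control set as a block. Same-numbered cell lines and primary tumours did not deviate together (r of deviations 0.016 to 0.047, none highest with its own number). So few lines cannot settle whether a line came from the tumour of its number. With that replicate number as a block 2389 were called over all probe sets, against 3059 on the same arrays without a block, and 6 members both times. The block changed no member call.

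Scaling moved the split of all calls. In cell lines against osteoblasts 20.9% of the called were higher, but 39.3% after 75th percentile scaling and 31.1% after quantile normalization. In cell lines against primary tumours the 29.5% higher became 41.0% after quantile normalization, and in cell lines against secondary tumours the 26.5% became 40.2% and 42.4% after the 2 scalings. The median of all probe sets shifted from -0.064 to 0.11 in the first comparison and from -0.16 to -0.0023 and 0.024 in the last, and with 75th percentile scaling from 0.036 to 0.14 in primary tumours against osteoblasts.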
